A study of Mus musculus with 4 samples.

Results

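Genes of lipoprotein uptake and cholesterol efflux were followed through the endothelial cells (ECs) and mural cells of the mouse left ventricle: Scarb1, Acvrl1, Abca1, Abcg1, Apoe, Lipg, Nr1h2 and Mylip. They were chosen by name and were 8 of the 31253 genes in the deposited count tables. Each level is the number of unique molecular identifiers (UMIs, one per captured mRNA molecule) summed over the cells of a class in a library per 1000000 UMIs of that sum (CPM). The scecRNA-seq data comprised 4 libraries of RFP+ left ventricular cells sorted by FACS, 2 labelled Chow diet (NC) and 2 labelled HFD plus L-NAME (HFpEF). In the NC diet fat supplied 10% of the energy and in the HFpEF diet 60%, the latter with the nitric oxide synthase inhibitor L-NAME at 0.5 mg/ml in the drinking water, both for 20 weeks. All mice carried the tamoxifen-inducible Cdh5-CreER driver and the R26-stop-tdTomato reporter, so that cells with Cdh5 promoter activity at the time of tamoxifen turned red and stayed so. The design sets S fl/fl/RΔEC mice, with both Scarb1 alleles floxed, against S fl/+/RΔEC mice, with 1 floxed allele, under each diet. The labels name no genotype, age or sex for a library and no number of mice behind it, so no genotype was assigned here. Since the study describes 4 groups of diet and genotype for these 4 libraries, the libraries of a diet are not replicates of 1 genotype, and the spread between them may include the genotype, which cannot be told apart from other differences between libraries.

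HDL, LDL and triglyceride-rich lipoproteins meet the endothelium first. SR-B1, the product of Scarb1, binds HDL, takes up its cholesteryl esters and signals to endothelial nitric oxide synthase, and together with ALK1, the product of Acvrl1, it can also carry LDL across the endothelium. Cells lose surplus cholesterol through the transporters ABCA1, which loads lipid-poor apolipoproteins, and ABCG1, which loads HDL, and oxysterols switch on both genes through the liver X receptors (LXRs). LXRβ is encoded by Nr1h2, and its targets include Apoe and Mylip, whose product IDOL sends the LDL receptor for degradation.

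Cells with over 200 detected genes and under 20% mitochondrial UMIs were kept, 40154 of 41843, and were gated into classes by marker genes that include none of the 8 genes. This gave 28805 capillary, 2890 artery and 477 vein ECs and 1046 mural cells (cells gated by pericyte or smooth muscle markers), with 90 lymphatic and 14 endocardial ECs as small side classes. A further 4710 ECs fell between the thresholds for capillary, artery and vein and were left out. Pan-endothelial markers summed to 7200 CPM in capillary, 6601 in artery and 5556 in vein ECs. In mural cells they still summed to 3124 to 3340 CPM over the libraries, beside 14060 to 17596 CPM of pericyte markers, so endothelial RNA was present in mural sums and its part in mural levels was not tested. Depth differed by diet: the median UMIs per kept cell were 3754 and 4127 for NC and 1736.5 and 1619 for HFpEF, and capillary sums held 7791149 to 34119687 UMIs. Between 9 and 39 cell barcodes were shared by any pair of libraries. The labels do not say that libraries came from separate animals, so p-values between diets measure only the spread between libraries. Those of comparisons made within libraries, between classes or states, measure only how much the differences within libraries vary. In both kinds edgeR estimates the spread partly from the other genes tested, so a gene's own differences can vary more than its standard error shows. Abcg1 in mural over capillary ECs, for example, had log2 ratios from -1.93 to 0.0013 over the libraries (SD 0.86), beside a fitted SE of 0.25. In summed counts fewer expressing cells and less RNA per cell cannot be told apart.

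The Scarb1 gene (ENSMUSG00000037936, chromosome 5, 125277087 to 125341094, minus strand, GRCm38) is the one floxed in this design. In capillary ECs Scarb1 stood at 115 CPM in NC library 1, 49.0 in NC library 2, 112 in HFpEF library 1 and 52.2 in HFpEF library 2. Each diet thus held 1 high and 1 low library, 2.34-fold apart in NC and 2.14-fold apart in HFpEF. The same libraries were the high ones in artery ECs (96.1, 31.8, 105 and 45.0 CPM in the same order) and in mural cells (69.9, 26.0, 69.3 and 36.8 CPM). Vein ECs gave 48.6, 25.8, 62.8 and 44.0 CPM, from only 22, 11, 7 and 32 UMIs. Lymphatic ECs gave 10.7, 25.5, 0 and 26.4 CPM from sums too small to order. No library lacked Scarb1 in capillary ECs, where the UMIs numbered 871 to 2448.

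The floxed segment is exon 2, at chr5:125304195-125304352 on the minus strand (GRCm38), and it is printed because these counts do not read it directly. It is 158 bases long and wholly coding, its length leaves a remainder of 2 when divided by 3, and 2025 of the 2521 bases of the transcript Scarb1-201 lie downstream of it. The assay tags the 3′ ends of transcripts, so a transcript without exon 2 could still be counted, and the counts alone do not check the deletion. No motif was searched in the exon, so none of its letters is in capitals.
Scarb1 exon 2: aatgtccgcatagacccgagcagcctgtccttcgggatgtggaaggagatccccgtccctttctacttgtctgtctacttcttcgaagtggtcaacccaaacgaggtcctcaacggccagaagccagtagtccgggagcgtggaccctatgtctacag

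Among capillary, artery and vein ECs and mural cells, the Scarb1 level in CPM was highest in capillary ECs. Within each library the capillary level exceeded the artery level, by 1.06-fold to 1.54-fold, and the vein level, by 1.19-fold to 2.36-fold. Counts were compared between classes with edgeR's quasi-likelihood test with the library as a block, Benjamini-Hochberg adjustment over all genes tested, and calls at an adjusted p under 0.05. Scarb1 was higher in capillary than in artery ECs by 0.36 on the log2 scale (SE 0.081, edgeR adjusted p = 0.00164) and higher than in vein ECs by 0.82 (SE 0.18, adjusted p = 5.01e-05). Mural cells had 0.531 to 0.704 of the capillary level, a log2 difference of -0.82 (SE 0.10, adjusted p = 7.90e-07). After each cell was thinned to 1000 UMIs, 6.46% of capillary ECs held a Scarb1 UMI (exact 95% interval 6.15% to 6.77%, counting error only). By library this share ran from 4.35% in NC library 2 to 11.3% in HFpEF library 1. Cells with too few UMIs for thinning were left out of this and all later thinned shares. Among capillary ECs these were 4392 cells, 3377 of them in HFpEF library 2. In artery ECs 6.17% did (5.27% to 7.17%), so this share does not order the 2 classes. Of 105 B cells 0 held one, which allows a share of up to 3.45%. T cells had 1.61% (0.0408% to 8.66%) and macrophages 4.08% (0.498% to 14.0%), with intervals that reach the capillary share. Unthinned, the capillary and B cell shares were 16.8% and 5.83% at median depths of 2278 and 3160.5 UMIs.

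**Figure D1:**
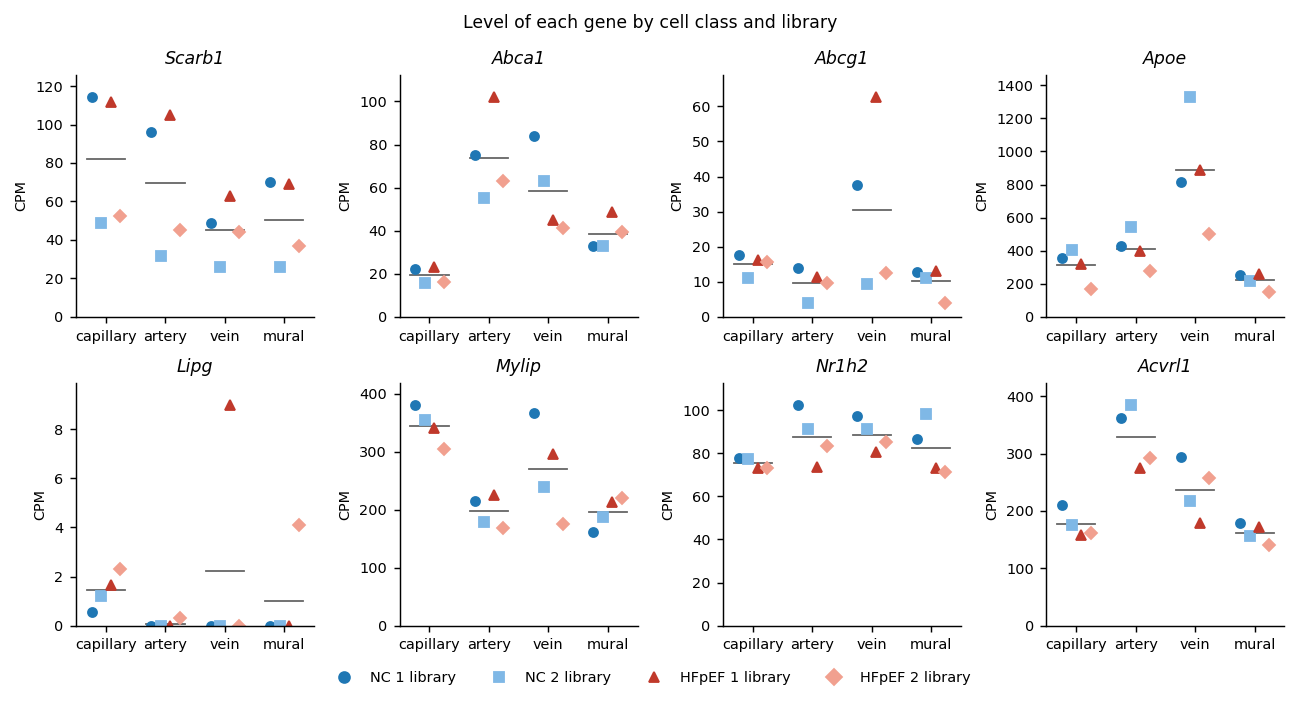
Levels of the 8 genes in CPM (vertical axes, starting at 0) in capillary, artery and vein ECs and mural cells, with 1 point per library and a grey line at the mean over the 4 libraries. Scarb1 shows 1 high and 1 low library per diet in capillary ECs (115 and 49.0 CPM in NC, 112 and 52.2 CPM in HFpEF), while Abca1 sits lowest in capillary ECs and Mylip highest there.

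Acvrl1 (ENSMUSG00000000530, chromosome 15, 101128522 to 101145336, plus strand) encodes ALK1, a receptor for BMP9 and BMP10 that also binds LDL. It was highest in artery and lowest in capillary ECs in every library. Artery ECs held 361, 384, 275.5 and 293 CPM in NC libraries 1 and 2 and HFpEF libraries 1 and 2, and capillary ECs held 210.5, 176, 158 and 161 CPM. No capillary value reached the lowest artery value, and within libraries the capillary level was 0.458 to 0.583 of the artery level. The log2 difference was -0.83 (SE 0.060, edgeR adjusted p = 6.81e-10). Against vein ECs, at 179 to 294 CPM, capillary ECs were lower in 4 of 4 libraries, by a log2 difference of -0.41 (SE 0.11, adjusted p = 0.00163). That call was lost without HFpEF library 2 (log2 difference -0.30, adjusted p = 0.128, with 0.00160 to 0.128 over the 10 alternatives). Mural cells held 140.2 to 179 CPM and were lower than capillary ECs in 3 of 4 libraries (log2 -0.26, SE 0.075, adjusted p = 0.00667), a call that was lost without NC library 1 (-0.22, adjusted p = 0.0558, with 0.000124 to 0.0558 over the 10 alternatives). Acvrl1 reads in mural cells came beside the endothelial RNA described above.

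Abca1 (ENSMUSG00000015243, chromosome 4, 53030787 to 53159895, minus strand) encodes the transporter that starts HDL formation. Of the 7 genes tested it had the largest fitted difference between capillary and artery ECs. Capillary ECs held 22.3, 15.5, 23.4 and 16.03 CPM in NC libraries 1 and 2 and HFpEF libraries 1 and 2, and artery ECs held 75.4, 55.3, 102 and 62.9 CPM. Within libraries the capillary level was 0.228 to 0.295 of the artery level, so that the lowest artery value stood above the highest capillary value. The log2 difference was -1.83 (SE 0.089, edgeR adjusted p = 1.79e-12). Vein ECs held 84.0, 63.3, 44.9 and 41.3 CPM, and capillary ECs were lower there too (log2 -1.63, SE 0.21, adjusted p = 5.41e-12). Artery and vein ECs did not keep 1 order: artery was lower in both NC libraries (0.898 and 0.873 of the vein level) and higher in both HFpEF libraries (2.28-fold and 1.52-fold). In HFpEF library 1 only 5 of 44 vein ECs held an Abca1 UMI, and artery against vein ECs was not tested. Mural cells held 32.8, 32.9, 48.7 and 39.5 CPM, above capillary ECs in every library by 1.47-fold to 2.46-fold (log2 0.90, SE 0.15, adjusted p = 2.12e-05). The 90 lymphatic ECs gave 117, 144.5, 202 and 85.9 CPM, from sums too small for a test. After thinning, 1.63% of capillary and 5.74% of artery ECs held an Abca1 UMI, beside 8.57% of B cells and 3.23% of T cells, from 9 of 105 cells (exact 95% interval 3.99% to 15.6%) and 2 of 62 cells (0.393% to 11.2%). The capillary share was thus not above that of these leukocytes. B cells also held pan-endothelial marker RNA (3448 CPM), so their share may not be a background level. The capillary share is not read as expression by itself.

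Abcg1 (ENSMUSG00000024030, chromosome 17, 31057675 to 31117988, plus strand), the transporter that hands cholesterol to mature HDL, went the other way in artery ECs. Capillary ECs held 17.5, 10.96, 16.2 and 15.5 CPM and artery ECs held 13.9, 4.02, 11.4 and 9.73 CPM in NC libraries 1 and 2 and HFpEF libraries 1 and 2. The capillary level was higher in 4 of 4 libraries, by 1.27-fold to 2.72-fold, although the ranges of the classes overlapped (log2 0.75, SE 0.17, edgeR adjusted p = 0.00179). Both transporter genes therefore separated capillary from artery ECs, in opposite directions. Vein ECs spread from 9.38 to 62.8 CPM and were not called against capillary ECs (log2 -0.52, SE 0.30, adjusted p = 0.248). Few vein cells held an Abcg1 UMI, 4 of 89 in NC library 2 at the low end and 5 of 44 in HFpEF library 1 at the high end. Mural cells held 12.7, 10.97, 13.1 and 4.08 CPM and were called lower than capillary ECs (log2 -0.75, SE 0.25, adjusted p = 0.0184). In HFpEF library 2 only 6 of 454 mural cells held an Abcg1 UMI. The mural call rested on HFpEF library 2 and on the tool: it was lost without that library (log2 -0.37, adjusted p = 0.269) and with DESeq2 (-0.75, adjusted p = 0.0825), with adjusted p from 0.00118 to 0.269 over the 10 alternatives.

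Apoe (ENSMUSG00000002985, chromosome 7, 19696109 to 19699188, minus strand) encodes apolipoprotein E, a ligand of LDL receptor family members and an acceptor of cellular cholesterol. Its level was lowest in capillary, higher in artery and highest in vein ECs in every library. Capillary ECs held 359, 404, 321 and 171 CPM, artery ECs 431, 542, 400.5 and 275 CPM, and vein ECs 817, 1331, 888 and 504 CPM, in NC libraries 1 and 2 and HFpEF libraries 1 and 2. Capillary ECs were lower than artery ECs by a log2 difference of -0.36 (SE 0.061, edgeR adjusted p = 8.24e-05) and lower than vein ECs by -1.42 (SE 0.089, adjusted p = 1.88e-36). The vein difference grew to -2.18 when cells were gated after thinning to 1000 UMIs. Mural cells held 254, 217, 262 and 148 CPM, below capillary ECs in all 4 libraries (log2 -0.62, SE 0.090, adjusted p = 4.62e-06). Macrophages, a strong source of Apoe, had 893 to 20450 CPM in their 51 cells. The 9 macrophage or monocyte markers summed to 19.2 to 25.7 CPM in capillary, 13.4 to 24.03 in artery and 7.03 to 19.9 in vein ECs, with 0 of the 9 markers at 0 in capillary, 2 in artery and 5 in vein sums. Fibroblasts also held much Apoe (1014 to 11525 CPM in 87 cells), and fibroblast markers were higher in vein (141 to 322 CPM) than in capillary ECs (10.7 to 20.4 CPM). The part of macrophage and fibroblast RNA in Apoe levels was not tested. T cells had a thinned share of 1.61% with an Apoe UMI, against 19.4% of capillary and 24.1% of artery ECs. B cells had 23.8% (25 of 105, 16.04% to 33.1%), with 15 of the 25 from NC library 2. The capillary and artery shares lay within the B cell interval and are not read as expression by themselves.

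Nr1h2 (ENSMUSG00000060601, chromosome 7, 44549616 to 44553951, minus strand) encodes LXRβ and differed little between classes. Capillary ECs held 77.7, 77.3, 73.0 and 73.2 CPM in NC libraries 1 and 2 and HFpEF libraries 1 and 2, and the artery, vein and mural values lay between 71.5 and 102 CPM. Capillary ECs were below artery and vein ECs in 4 of 4 libraries each, but neither difference passed the test (log2 -0.17, SE 0.070, edgeR adjusted p = 0.0714 for artery, and -0.20, SE 0.14, adjusted p = 0.381 for vein). The mural difference was 0.02 (SE 0.092, adjusted p = 0.895).

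Mylip (ENSMUSG00000038175, chromosome 13, 45389742 to 45412022, plus strand), the LXR target that encodes the ubiquitin ligase IDOL, was higher in capillary ECs than in artery and vein ECs and mural cells. Capillary ECs held 380.2, 355, 341 and 305 CPM in NC libraries 1 and 2 and HFpEF libraries 1 and 2, against 215, 179, 226 and 169 CPM in artery ECs. The lowest capillary value exceeded the highest artery value, and the ratio within libraries was 1.51 to 1.98 (log2 0.90, SE 0.060, edgeR adjusted p = 1.94e-10). Vein ECs, at 176 to 367 CPM, were lower than capillary ECs within each library (log2 0.48 in favour of capillary, SE 0.11, adjusted p = 8.90e-05). The capillary level was 1.04-fold to 1.73-fold the vein level. Mural cells held 161, 188, 213.5 and 219.9 CPM, below capillary ECs in every library (log2 -0.94, SE 0.093, adjusted p = 1.79e-08). Thinned shares of cells with a UMI were 26.0% in capillary and 17.0% in artery ECs, beside 12.4% in B cells and 1.61% in T cells.

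Abca1 and Mylip are both LXR targets and differed between capillary and artery ECs in opposite directions, so their promoters are set side by side. RefSeq promoter windows (GRCm38.p6, 300 bases around the transcript start, given in the strand of the gene) were matched for 4 of the 8 genes. The Abca1 window lies at chr4:53159846-53160145 on the minus strand and the Mylip window at chr13:45389492-45389791 on the plus strand. Capitals mark matches, on either strand, to the E-box CACGTG, the GC box GGGCGG, the TATA box TATAAA and a DR4 element, the direct repeat of AGGTCA with 4 bases between the copies and up to 3 mismatches, which is the kind of element that LXR and its partner RXR bind.
Abca1 promoter: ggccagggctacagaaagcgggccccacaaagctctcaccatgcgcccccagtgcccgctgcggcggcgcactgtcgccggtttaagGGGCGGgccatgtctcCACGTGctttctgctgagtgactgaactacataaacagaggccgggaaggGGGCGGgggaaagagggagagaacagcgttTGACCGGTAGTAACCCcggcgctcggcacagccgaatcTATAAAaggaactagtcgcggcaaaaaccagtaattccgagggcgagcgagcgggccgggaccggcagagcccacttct
Mylip promoter: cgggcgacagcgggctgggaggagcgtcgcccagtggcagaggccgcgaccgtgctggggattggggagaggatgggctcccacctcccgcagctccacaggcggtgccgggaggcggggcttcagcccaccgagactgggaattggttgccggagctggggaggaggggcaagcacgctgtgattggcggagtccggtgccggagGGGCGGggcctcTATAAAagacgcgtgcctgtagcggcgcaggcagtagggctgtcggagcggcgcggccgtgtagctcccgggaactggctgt

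The Abca1 window held 2 GC boxes at -163 and -97 from the start, an E-box at -147, a TATA box at -29 and a DR4 match with 3 mismatches on the minus strand at -67. The Mylip window held a GC box at -44 and a TATA box at -32, and these letters of DR4 and the E-box were not in its window. Among 32851 RefSeq promoter windows of the same length, 35.7% held a GC box, 13.6% a TATA box, 7.15% an E-box and 21.9% a DR4 match by this rule, so each match is a description of the window. GC content was 62.7% for Abca1 and 71.0% for Mylip.

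Lipg encodes endothelial lipase, a phospholipase that remodels HDL on the endothelial surface, and it was near the limit of detection. Capillary ECs gave 12 and 27 UMIs for NC and 13 and 79 for HFpEF. The levels were 0.561 CPM (exact Poisson 95% interval 0.290 to 0.981), 1.22 CPM (0.802 to 1.77), 1.67 CPM (0.888 to 2.85) and 2.32 CPM (1.83 to 2.89) in that order, with intervals that cover counting error only. Artery ECs gave 1 UMI in all 4 libraries together, 0.109 CPM (0.00276 to 0.607), against 1.53 CPM (1.28 to 1.82) in capillary ECs. Vein ECs also gave 1 UMI, and mural cells gave 6, all of them in HFpEF library 2. Lipg did not pass the filter on low counts in the comparisons between classes, so it had no primary test there. With no filter, edgeR gave a log2 difference of 3.74 for capillary against artery ECs (SE 0.96, adjusted p = 0.000777), where artery ECs had the 1 UMI. It gave 1.46 for capillary against vein ECs (SE 1.39, adjusted p = 0.735) and -0.40 for mural cells against capillary ECs (SE 0.68, adjusted p = 0.805).

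Of the 7 genes tested between capillary and artery ECs, 6 were called, 3 higher and 3 lower in capillary ECs, where 30.9% of all 10769 genes tested were called. Between capillary and vein ECs 5 of 7 were called (2 higher and 3 lower), beside 20.7% of all genes. Between mural cells and capillary ECs 6 of 7 were called (1 higher in mural cells and 5 lower), beside 43.8% of all genes. With class differences this common, the count of calls is a description of these classes and does not set the 8 genes apart.

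**Figure D2:**
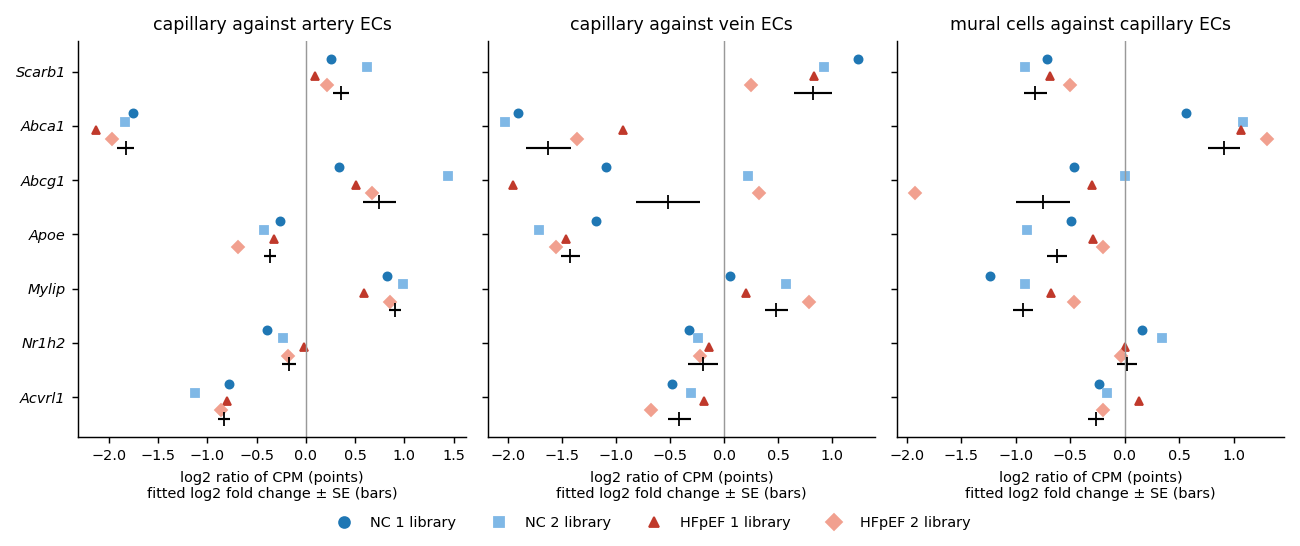
Log2 ratios of CPM within each library, capillary over artery ECs, capillary over vein ECs and mural cells over capillary ECs, with 1 point per library for 7 genes, black bars for the fitted log2 difference ± SE and a line at 0. All 4 libraries fall on the same side for Abca1 (capillary lowest) and for Mylip and Scarb1 (capillary highest), while Abcg1 against vein ECs falls on both sides.

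The diet comparison asked whether HFpEF and NC libraries differed within a class. None of the 8 genes passed edgeR's test in capillary ECs, where 1 of 12534 genes tested (0.00798%) was called and 2234 had an unadjusted p under 0.05. That gene, Cyp1a1, a target of the aryl hydrocarbon receptor named here after its values were seen, fell from 27.9 and 34.8 CPM in NC to 0.898 and 1.35 CPM in HFpEF (log2 -4.66, SE 0.21, adjusted p = 0.000571). In artery ECs 0.172% of all genes tested were called, in vein ECs 0% and in mural cells 0.154%, and none of the 7 members tested in each was among them. The unadjusted count in vein ECs was 401 of 5811 genes, and DESeq2 called 0 there as well. With 2 libraries a diet and up to 3.02-fold between libraries of a diet for Scarb1, these values leave wide intervals.

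For Scarb1 the capillary means were 81.8 ± 46.3 CPM in NC and 82.0 ± 42.1 CPM in HFpEF (SD, n = 2 libraries each). The log2 difference, HFpEF over NC, was -0.01 with a 95% interval from -0.88 to 0.86 (edgeR adjusted p = 0.992). The libraries of each diet lay farther apart than the diet means, and the diets overlapped in all 4 classes. Without NC library 1 the artery difference was 1.01 on the log2 scale (adjusted p = 0.00142), without NC library 2 it was -0.57 (adjusted p = 0.170), and over the 11 alternatives the adjusted p ran from 0.00142 to 0.998. The sign and the call of a Scarb1 diet difference in artery ECs thus depended on which library was left out.

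Apoe had lower HFpEF than NC values in capillary ECs (321 and 171 against 359 and 404 CPM) and in artery ECs (400.5 and 275 against 431 and 542 CPM). The diets did not overlap in either class, but they did in vein ECs, where HFpEF library 1 (888 CPM) lay above NC library 1 (817 CPM). The log2 differences were -0.63 (SE 0.27, edgeR adjusted p = 0.278) in capillary, -0.54 (SE 0.18, adjusted p = 0.324) in artery and -0.69 (SE 0.29, adjusted p = 0.682) in vein ECs, and -0.23 (SE 0.21, adjusted p = 0.780) in mural cells. HFpEF library 2 held the lowest Apoe in all 4 classes. It had the most erythroid marker RNA in capillary ECs (2816 CPM, against 352 to 848 CPM in the others), but not in artery ECs. There HFpEF library 1 had 348 CPM and HFpEF library 2 had 149 CPM. With hemoglobin-rich cells left out, each Apoe diet difference kept its sign and was not called. The part of erythroid RNA in Apoe levels was not tested. Macrophage or monocyte markers were also lower in HFpEF without overlap, at 24.002 and 19.2 against 25.7 and 25.2 CPM in capillary ECs and 18.5 and 13.4 against 24.03 and 23.1 CPM in artery ECs, again with HFpEF library 2 lowest, and their part in the Apoe difference was not tested. The capillary difference was -0.23 without HFpEF library 2 and -1.17 without HFpEF library 1, where it was called (adjusted p = 0.00185), and it was also called with no filter on low counts (-0.65, adjusted p = 4.51e-05), with 4.51e-05 to 0.668 over the 11 alternatives. The artery difference was called without NC library 1 (-0.69, adjusted p = 0.00726) and with no filter (-0.55, adjusted p = 0.0268), with 0.00726 to 0.860 over its 11 alternatives. The vein difference was called without NC library 1 (-1.02, adjusted p = 0.0173) and without HFpEF library 1 (-1.11, adjusted p = 0.00937), with 0.00937 to 1.00 over its 11 alternatives.

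Lipg levels in capillary ECs did not overlap between the diets, with 1.67 and 2.32 CPM for HFpEF against 0.561 and 1.22 CPM for NC. The log2 difference of 1.22 (SE 0.42, 95% interval 0.40 to 2.04) had an unadjusted p of 0.0214 and an edgeR adjusted p of 0.206. With no filter on low counts it was called (1.21, adjusted p = 0.0312), with 0.0312 to 0.605 over the alternatives that gave one. It was 0.77 without NC library 1 and 1.87 without NC library 2. In the 16839 capillary ECs clear of the 3 states described further on the diets overlapped. HFpEF gave 0.434 and 1.12 CPM there and NC 0.759 and 1.30 CPM, from 2 to 20 UMIs a library. Of the 131 capillary Lipg UMIs this group held 51, activated ECs 19, interferon-responding ECs 7 and tip-like ECs 1. The rest lay in capillary ECs in neither this group nor a state, which were not compared alone. These values therefore do not place the diet difference in the states.

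Acvrl1 had HFpEF values under the NC values in capillary ECs (158 and 161 against 210.5 and 176 CPM) and artery ECs (275.5 and 293 against 361 and 384 CPM). The log2 differences were -0.27 (SE 0.12, edgeR adjusted p = 0.291) and -0.37 (SE 0.13, adjusted p = 0.331), neither of them called. Nr1h2 was lower in HFpEF without overlap in all 4 classes, by small amounts that were not called. On the log2 scale it differed by -0.08 in capillary (95% interval -0.27 to 0.11), -0.27 in artery and -0.18 in vein ECs and by -0.34 in mural cells. The edgeR adjusted p ran from 0.603 to 0.928. All 4 classes come from the same 4 libraries, so they are not separate checks. With 2 libraries a diet, a lack of overlap is a description and not a test. Mylip in capillary ECs was 341 and 305 CPM for HFpEF against 380.2 and 355 CPM for NC (log2 -0.18, SE 0.11, adjusted p = 0.438), and in mural cells 213.5 and 219.9 CPM against 161 and 188 CPM (log2 0.33, SE 0.16, adjusted p = 0.523). Neither was called.

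Abca1 and Abcg1 gave no call either. In vein ECs Abca1 was 44.9 and 41.3 CPM for HFpEF against 84.0 and 63.3 CPM for NC (log2 -0.82, SE 0.33, edgeR adjusted p = 0.682), from 477 cells in all. HFpEF library 1 held only 44 of these vein ECs. In mural cells Abca1 was 48.7 and 39.5 CPM against 32.8 and 32.9 CPM (log2 0.40, SE 0.25, adjusted p = 0.656), and in capillary ECs the difference was 0.02 (95% interval -0.44 to 0.48). The Abcg1 difference in capillary ECs was 0.15 (95% interval -0.28 to 0.58).

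**Figure D3:**
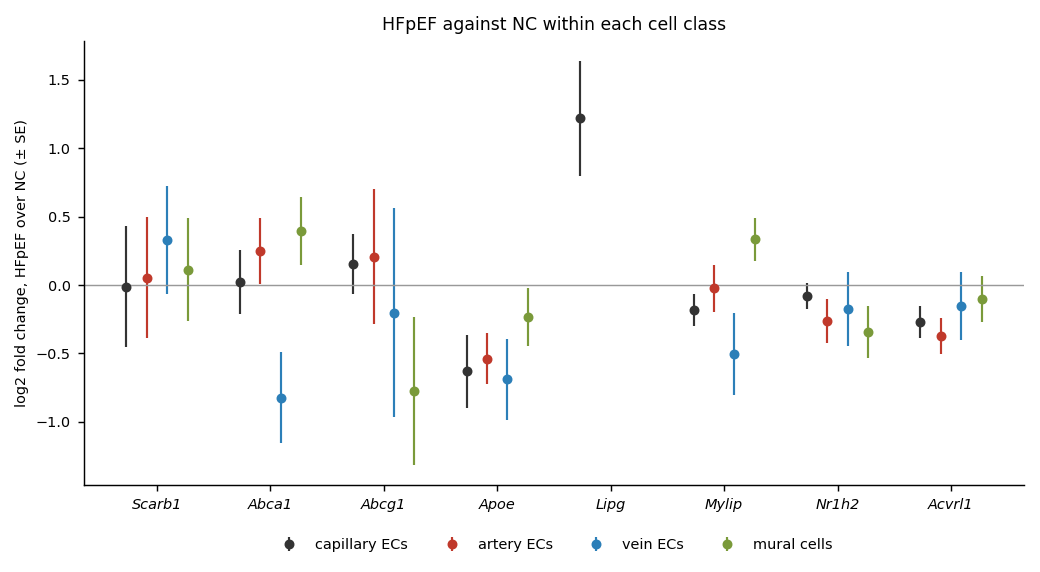
Log2 difference of HFpEF over NC for each gene in capillary, artery and vein ECs and mural cells, with bars of ± 1 standard error and a line at 0 (Lipg was tested in capillary ECs only). None was called, and the point for Scarb1 in capillary ECs lies at -0.01 with a standard error of 0.44.

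Whether the diet difference itself varied between classes was tested with a class by diet term. In artery against capillary ECs 0.0801% of all genes tested were called, in vein against capillary ECs 0.0453% and in mural cells against capillary ECs 0.319%. None of the members tested (7, 7 and 8) was among them, and in the vein comparison the called genes were S100a6, Mgp, Mt2, Mt1 and Nr4a1, named after their values were seen. The smallest unadjusted p among the members was that of Mylip in mural cells, whose diet difference exceeded the capillary one by 0.53 on the log2 scale (SE 0.15, unadjusted p = 0.000659, edgeR adjusted p = 0.122). Apoe followed with 0.49 (SE 0.15, unadjusted p = 0.00161, adjusted p = 0.200). From the lists of neighbouring pathways, 3 genes were called. The diet difference of Smad6, an inhibitor of BMP signalling, was lower in artery than in capillary ECs (log2 -0.81, SE 0.13, adjusted p = 0.0191). For the phospholipid transfer protein gene Pltp the diet difference was higher in mural cells than in capillary ECs (0.70, SE 0.16, adjusted p = 0.0178). The same held for the lipoprotein lipase inhibitor gene Angptl4 (0.93, SE 0.21, adjusted p = 0.0142). These values compare diet differences and not expression levels. The 3 calls were not tested under the alternatives, and the number of genes called for the class by diet terms depended on the processing.

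Marker genes set apart 3 states among capillary ECs. These were interferon-responding cells (1646, with Ifit1, Isg15 and others), activated cells (714, with Il6, Plaur, Sele, Icam1 and others) and tip-like cells (293, with Apln, Esm1 and others). The other capillary ECs named below are the 16839 cells clear of all 3 states. These groups do not cover the 28805 capillary ECs, and cells in none of them were left out of the state comparisons. Each state was compared within libraries with the cells clear of all 3 states. In activated ECs 3 of the 7 members tested were called, beside 15.8% of all genes tested. Their Apoe level was 189, 232, 137.5 and 92.1 CPM in NC libraries 1 and 2 and HFpEF libraries 1 and 2, against 385, 433, 358 and 196 CPM in the other capillary ECs. This was 0.384 to 0.535 of the other cells' level, a fall in 4 of 4 libraries (log2 -0.96, SE 0.10, edgeR adjusted p = 1.22e-13, and -1.47 with a stricter gate). Activated ECs were the deeper cells, with median UMIs of 5490, 5794, 2549 and 2618 against 3732.5, 3986.5, 1693 and 1669, and the part of depth was not tested.

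Scarb1 in activated ECs was 148, 83.2, 111 and 71.5 CPM, against 116.5, 47.8, 111 and 47.9 CPM in the other capillary ECs, higher in 3 of 4 libraries. The sums were called higher (log2 0.57, SE 0.13, edgeR adjusted p = 0.000322). The call was lost with a stricter gate (0.33, adjusted p = 0.288) and without HFpEF library 2 (0.44, adjusted p = 0.0810), with 6.08e-05 to 0.288 over the 9 alternatives. At a depth of 1000 UMIs a cell the pooled share with a Scarb1 UMI was 5.95% in activated ECs (exact 95% interval 4.29% to 8.02%). It was 6.66% (6.26% to 7.08%) in the other capillary ECs, and the activated share was lower in 3 of 4 libraries. At 500 UMIs the activated share was instead higher in each library. It was 6.06%, 3.70%, 6.35% and 3.01% in NC libraries 1 and 2 and HFpEF libraries 1 and 2, against 5.66%, 2.22%, 5.61% and 2.60%. The order changed with the depth, so none is read from the share. The part of depth in the call was not tested. Mylip was 378, 401, 360 and 388.5 CPM, against 366, 335, 312 and 274 CPM, higher in 4 of 4 libraries (log2 0.38, SE 0.092, adjusted p = 0.000978). That call was lost without HFpEF library 2 as well (0.23, adjusted p = 0.201, with 0.000140 to 0.201 over the 9 alternatives), a library that supplied 531 of the 714 activated cells. Acvrl1 was lower in 4 of 4 libraries without passing the test (log2 -0.23, adjusted p = 0.149).

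Lipg UMIs were unevenly spread over the capillary states. Activated ECs were 2.48% of capillary ECs and held 19 of the 131 capillary Lipg UMIs (14.5%). In HFpEF library 2 they were 3.55% of capillary cells and held 18 of 79 Lipg UMIs (22.8%), at 10.3 CPM (exact Poisson 95% interval 6.10 to 16.3) against 1.12 CPM in the other capillary ECs. HFpEF library 1 had 1 Lipg UMI in activated ECs, and the 66 and 54 activated cells of the NC libraries had 0, so the pattern rests on 1 library. HFpEF library 1 instead had 4 of its 13 Lipg UMIs in interferon-responding ECs (8.78 CPM, 2.39 to 22.5). Its tip-like ECs stood at 10.2 CPM from 1 UMI (0.258 to 56.8). Lipg did not pass the filter here. With no filter, the only setting with a value, edgeR gave a log2 difference of 2.51 for activated against other capillary ECs (SE 0.60, adjusted p = 0.00064). It gave 0.40 for interferon-responding ECs (SE 0.74, adjusted p = 0.930) and 0.26 for tip-like ECs (SE 1.75, adjusted p = 0.952).

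In tip-like ECs 2 of 7 members were called, Apoe and Acvrl1, beside 9.21% of all genes tested. Acvrl1 was 99.7, 44.8, 102 and 74.7 CPM in NC libraries 1 and 2 and HFpEF libraries 1 and 2, against 216, 180.3, 169 and 169 CPM in the other capillary ECs. This was 0.248 to 0.603 of their level (log2 -1.26, SE 0.19, edgeR adjusted p = 3.58e-09), and -0.62 when cells were gated after thinning. Apoe was 133, 147, 194 and 102 CPM (log2 -1.26, SE 0.16, adjusted p = 6.19e-13), and that call was lost when cells were gated after thinning (-0.14, adjusted p = 0.575, with 2.37e-18 to 0.575 over the 9 alternatives). The NC libraries held only 31 and 26 tip-like cells.

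In interferon-responding ECs 2 of 7 members were called, beside 7.18% of all genes tested. Mylip was 376, 377, 377 and 310.4 CPM, higher than in the other capillary ECs in 4 of 4 libraries (log2 0.23, SE 0.053, edgeR adjusted p = 0.00269), but not called with a stricter gate (0.17, adjusted p = 0.0649, with 0.00163 to 0.0649 over the 9 alternatives). Apoe was lower in 4 of 4 libraries, at 0.681 to 0.928 of the other cells' level (log2 -0.19, adjusted p = 0.0413). Its call was lost in 4 of 9 alternatives: with DESeq2 (-0.20, adjusted p = 0.164), without NC library 2 (-0.16, 0.252), without HFpEF library 1 (-0.14, 0.201) and without HFpEF library 2 (-0.22, 0.0534), with adjusted p from 0.00119 to 0.252. Abca1, Abcg1 and Nr1h2 were called in none of the 3 states.

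**Figure D4:**
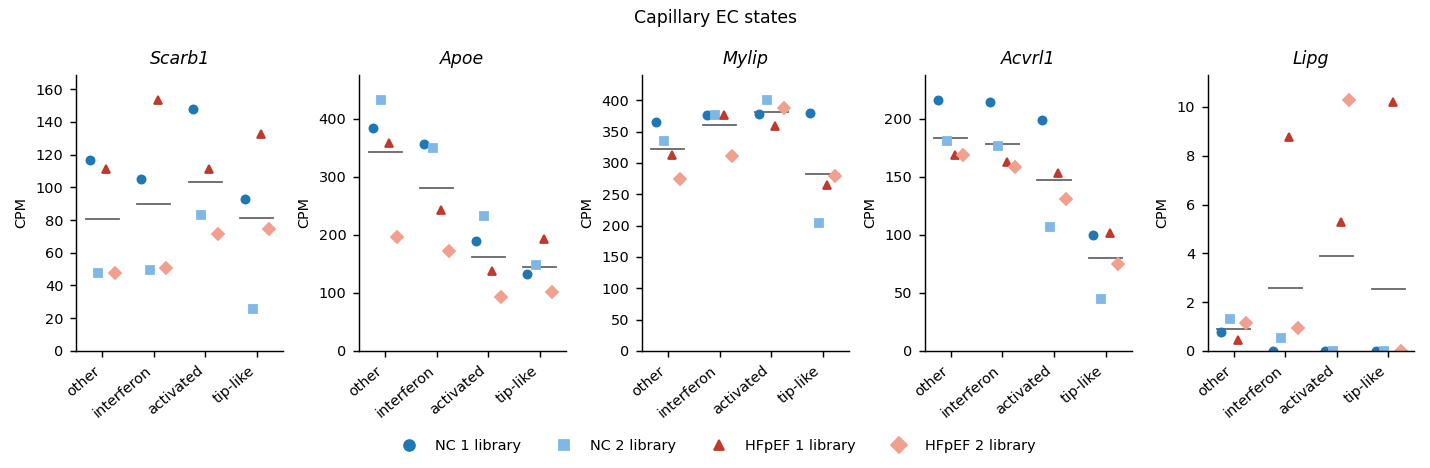
CPM of Scarb1, Apoe, Mylip, Acvrl1 and Lipg in interferon-responding, activated, tip-like and other capillary ECs, with 1 point per library, a grey line at the mean over the 4 libraries and axes that start at 0. Apoe lies lower in activated (92.1 to 232 CPM) than in other capillary ECs (196 to 433 CPM). Lipg is highest in the activated ECs of HFpEF library 2 (10.3 CPM), beside 10.2 CPM from 1 UMI in the tip-like ECs of HFpEF library 1.

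The other genes of these pathways were taken as 6 lists of 13 to 22 genes, a few of which, such as Gpihbp1, stand in 2 lists. Between capillary and artery ECs the list of lipases and their regulators had 5 called higher and 3 called lower of 11 tested, where 30.9% of all genes tested were called. Lipoprotein lipase (Lpl) was higher in capillary ECs (1236 to 1692 against 408 to 645 CPM, log2 1.47, SE 0.066, edgeR adjusted p = 5.23e-13), as was its endothelial anchor Gpihbp1 (log2 0.89) and its inhibitor Angptl4 (log2 1.09), while the protease Furin was lower (log2 -0.80). The median of the list was 0.33, where the other lists lay between -0.13 and 0.16. Of 13 lipoprotein and scavenger receptors tested 4 were called higher, among them the fatty acid receptor Cd36 (log2 0.34, and 0.22 when cells were gated after thinning), and 4 lower, among them the receptor chaperone Lrpap1 (log2 -0.48) and Lrp6 (log2 -0.33). SREBP2 targets, the genes of cholesterol synthesis and LDL uptake, had 3 called higher and 0 lower of 13.

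LXR factors and LXR target genes were divided between capillary and artery ECs, with 3 called higher and 6 lower of 15 tested, beside the same 30.9% of all genes. Pltp was higher (log2 0.39), and the desaturase Scd2 (log2 -2.66), the phosphodiesterase Smpdl3a (log2 -0.86) and the coactivator Ncoa1 (log2 -0.50) were lower. Of 18 genes of cholesterol efflux and handling 1 was called higher, the lysosomal cholesterol carrier Npc2 (log2 0.37), and 3 lower, with the sterol binding protein gene Osbpl1a (log2 -1.15) and Tspo (log2 -0.84) among them. Of 14 genes of HDL signalling and lipoprotein transcytosis 6 were called higher and 7 lower. Dock4, the exchange factor that couples SR-B1 to LDL transport, was higher in capillary ECs (70.6 to 86.5 against 27.3 to 41.2 CPM, log2 1.14, SE 0.094, adjusted p = 5.33e-09), with the BMP effectors Smad1 (log2 1.05) and Smad5 (log2 0.82). The BMP inhibitors Smad6 (log2 -1.65) and Smad7 (log2 -0.68) and the sphingosine 1-phosphate receptor S1pr1 (log2 -0.59) were lower, as Acvrl1 was.

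Against vein ECs the lipase list had 7 called higher in capillary ECs and 1 lower, Pcsk6 (log2 -2.64), of 11 tested, beside 20.7% of all genes called, with Lpl (log2 1.37) and Gpihbp1 (log2 1.30) leading. The oxysterol-forming enzyme gene Ch25h was lower in capillary than in vein ECs (7.44 to 13.3 against 77.1 to 108 CPM, log2 -3.05, SE 0.21, edgeR adjusted p = 3.76e-32). Efflux genes had 1 called higher and 3 lower of 16, LXR genes 0 higher and 4 lower of 14, receptors 2 higher and 4 lower of 13, HDL signalling genes 5 higher and 4 lower of 15, and SREBP2 targets 1 higher and 0 lower of 11. Against capillary ECs, mural cells had 0 lipase genes called higher and 8 lower of 11, and 9 LXR genes called higher and 2 lower of 16, beside 43.8% of all genes called. Receptors had 4 higher and 7 lower of 14, efflux genes 3 and 5 of 18, HDL signalling genes 3 and 10 of 17, and SREBP2 targets 0 and 2 of 13. LXRα (Nr1h3) was among the higher ones, at 29.95 to 54.3 CPM against 2.84 to 6.67 CPM in capillary ECs (log2 2.96, SE 0.18, adjusted p = 3.45e-12). The receptor gene Lrp1 was 132 to 178 CPM in mural cells and 0.561 to 1.44 CPM in capillary ECs (log2 6.92, SE 0.15, adjusted p = 3.24e-20).

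**Figure D5:**
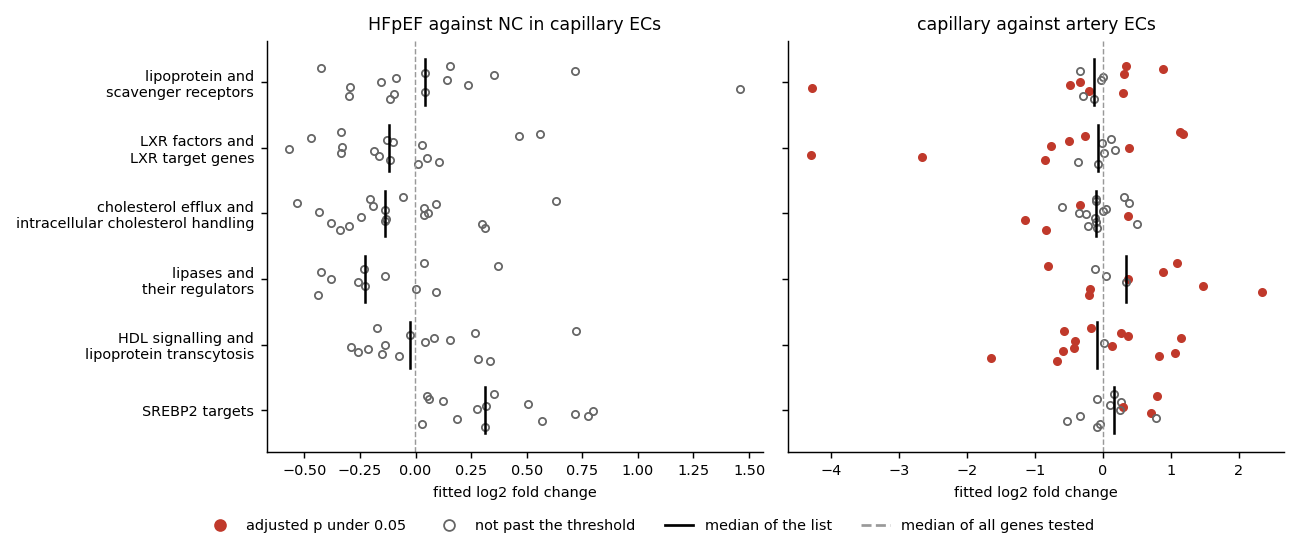
Fitted log2 differences of the genes tested in the 6 lists, for HFpEF against NC in capillary ECs (left) and capillary against artery ECs (right), with 1 point per gene (filled where called), a bar at the median of the list and a dashed line at the median of all genes. SREBP2 targets have a median of 0.31 between the diets with no called gene, and the lipase list has a median of 0.33 between capillary and artery ECs.

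In activated ECs Ch25h (log2 1.79) and the sterol transfer gene Gramd1a (log2 1.098) were the 2 of 16 efflux genes called higher, with 0 lower, beside 15.8% of all genes called. Gpihbp1 (log2 -0.47) and Cd36 (log2 -0.35) were the 2 of 12 receptor genes called lower, with 0 higher. HDL signalling genes had 2 called higher and 5 lower of 14, with the BMP targets Id3 (log2 -0.56) and Id1 (log2 -0.48, with -0.32 and no call without NC library 2, -0.28 and no call with the thinned gate and -0.77 without HFpEF library 2) and the coreceptor Eng (log2 -0.42) among the lower. LXR genes had 1 called higher and 0 lower of 12, lipase genes 1 higher and 2 lower of 11, and SREBP2 targets 0 of 12. Tip-like ECs had 4 lipase genes called lower of 11, led by Lpl (log2 -1.52), 2 HDL signalling genes called higher and 7 lower of 14, 3 receptors called lower of 12, 1 LXR gene called higher and 2 lower of 12, and no efflux gene or SREBP2 target, beside 9.21% of all genes called. Most of these tip-like differences were smaller when cells were gated after thinning, with Lpl at -0.70. Interferon-responding ECs had 3 efflux genes called higher of 16, 1 lipase gene higher and 2 lower of 11 and 2 receptors lower of 12, and no call in the other 3 lists, beside 7.18% of all genes called.

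The diet comparison gave no call in any of the 6 lists in any of the 4 classes. SREBP2 targets in capillary ECs had 14 of 14 fitted values above 0, with a median log2 difference of 0.31 where the median of all genes was -0.0031. Insig1, which holds the SREBP pathway in check and is itself a target, was 51.9 and 80.6 CPM for HFpEF against 35.9 and 41.2 CPM for NC (log2 0.80, SE 0.19, edgeR adjusted p = 0.141). It was called with DESeq2 (adjusted p = 0.00531), with no filter (2.44e-07) and without HFpEF library 1 (1.05, 0.00211), and it was 0.45 without HFpEF library 2, with adjusted p from 2.44e-07 to 0.334 over the 11 alternatives. Gpihbp1 was 1899 and 2109 CPM against 2658 and 2735 CPM (log2 -0.42, SE 0.12, adjusted p = 0.162), and it was called with DESeq2 (adjusted p = 0.0267) and with no filter (0.0187), with adjusted p from 0.0187 to 0.371 over the 11 alternatives.

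The genes whose pattern was most like that of each member were taken by Pearson correlation of log2(CPM + 1) over the 16 sums of 4 libraries and 4 classes, among 8177 genes with a mean of at least 10 CPM. These sums share libraries and depth, so the values describe likeness only. Abca1 was most like the growth factor gene Vegfc (r = 0.92), the artery gate marker Bmx (0.91) and Ccn3 (0.90), and Acvrl1 was most like Slc12a7 (0.94), Tmem255b (0.93) and Atox1 (0.93). Apoe was most like Cyb5a and Gata6 (both 0.91) and Ptpre (0.90), and Mylip was most like Fam102b (0.85), Slc28a2 (0.84) and Mest (0.84). Scarb1 was most like Tpm3-rs7 (0.85) and the mitochondrial genes mt-Nd4 (0.83) and mt-Co1 (0.82). With mitochondrial UMIs left out of the total, capillary Scarb1 was 123, 52.4, 123 and 55.8 CPM, with the same high and low libraries. Abcg1 was most like Grk6 (0.85), Rpl36al (0.84) and Birc3 (0.83), Nr1h2 was most like Fkbp5 (0.82), Fam193a (0.80) and Psenen (0.78), and Lipg was most like Zfp106 (0.85), Lypla1 (0.80) and Lrch2 (0.80), from few counts.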

How the data were processed

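Per the labels and the study's methods, the authors sorted RFP+ cells, made 10x Genomics 3′ libraries, trimmed reads with fastp, counted UMIs with Cell Ranger 5.0.1 on mm10 and equalized mapped reads per cell between samples. The deposited values are raw UMI counts per gene and cell. Cells with 200 genes or fewer or with 20% or more mitochondrial UMIs were removed. Remaining cells were gated by marker genes on UMIs per 10000, and no doublet caller was run. The study describes a gate against doublets for flow cytometry of lineage-tracing hearts and no such step for the sequencing data. Gene positions came from GENCODE for GRCm38.

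Counts were summed per library and class and tested with edgeR 4.0.16 (R 4.3.3; glmQLFit, glmQLFTest, TMM, filterByExpr, Benjamini-Hochberg over all genes tested, two-sided, called at an adjusted p under 0.05). Diet was the only term between diets, and the library was a block between classes or states. Standard errors were computed from the edgeR test as the absolute log2 fold change over the square root of its F statistic. The normal 95% intervals used them and took no account of the small number of libraries, so they are narrower than the test allows. Acvrl1 in capillary ECs, for example, had an unadjusted edgeR p of 0.0545 and an interval from -0.504 to -0.038. Library totals after filtering were at least 10801149 UMIs. The scripts were first tested on simulated counts. Alternatives were RLE size factors, DESeq2 1.42.0, no count filter, a stricter gate, a gate after thinning to 1000 UMIs, removal of cells with at least 1% hemoglobin UMIs, CPM without mitochondrial UMIs, each library left out, and the library number as a block.

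The 8 genes, the pathway lists and the comparisons were chosen with earlier results of these data known. The named genes were the 8 in every comparison. From each list they were up to 3 called genes per direction with the largest log2 fold change and a mean of at least 10 CPM, or the 2 with the smallest p where none was called. No genotype comparison was made.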

Additional observations from a re-analysis of the deposited data

How the results depend on the processing

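Every call between capillary, artery and vein ECs and mural cells kept its direction under each alternative. RLE size factors (all comparisons) and removal of hemoglobin-rich cells (classes and diets) moved no count of calls by over 1.5 times. The number of genes called between the diets depended on the processing: in capillary ECs it was 1, with 240 under DESeq2, 1053 with no count filter, 8 with the gate on thinned cells and 2 to 442 with a library left out. In artery ECs 17 became 188 with no filter, 4 with the thinned gate and 25 to 210 with a library left out, in vein ECs 0 became 32, 16 and 35 to 46, and in mural cells 14 became 113, 1 and 3 to 91. The lone library of a diet is then assumed to vary like the others. Between states, 718 calls in interferon-responding ECs became 458 under DESeq2, 1556 for activated capillary ECs against other capillary ECs became 933 under DESeq2, 1012 with the stricter gate, 797 with the thinned gate and 998 to 1396 with a library left out, and 879 in tip-like ECs became 550 under DESeq2. The share called higher went from 66.5% to 77.2% in activated and from 49.7% to 61.1% in tip-like ECs under DESeq2. For the class by diet terms, 9 calls in artery ECs became 4 under DESeq2, 44 with no filter, 16 with the stricter gate and 5 to 94 with a library left out, 5 in vein ECs became 0, 8 with the stricter gate and 2 to 19 with a library left out, and 37 in mural cells became 2 under DESeq2 and 10 to 64. The cause was not tested. Of the 8 genes, 2 were called between the diets in capillary ECs with no filter and 0 to 1 with a library left out, 1 and 0 to 2 in artery ECs, and 0 to 1 in vein ECs with a library left out. The 2 called in interferon-responding ECs became 1 under DESeq2 and the stricter gate and 1 to 2 with a library left out, the 3 in activated ECs became 1 to 3, and the 2 in tip-like ECs became 1 with the thinned gate.

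Changes of sign were found only in differences that were not called in the primary test. With a library left out the log2 diet difference ranged in capillary ECs from -0.66 to 0.73 for Scarb1, -0.25 to 0.33 for Abca1 and -0.15 to 0.53 for Abcg1. In artery ECs it ranged from -0.57 to 1.01 for Scarb1, -0.064 to 0.69 for Abca1, -0.46 to 1.33 for Abcg1, -0.24 to 0.24 for Mylip and -0.075 to 0.97 for Insig1. In vein ECs it ranged from -0.047 to 0.87 for Scarb1, -0.94 to 1.41 for Abcg1, -0.49 to 0.083 for Acvrl1, -0.76 to 0.20 for Pltp and -0.63 to 1.22 for Hmgcs1, and in mural cells from -0.51 to 0.90 for Scarb1, -1.47 to 0.19 for Abcg1, -0.63 to 0.19 for Apoe and -0.23 to 0.075 for Acvrl1. The mural difference of Nr1h2 ranged from -0.080 to 0.081 (-0.058 with no filter). In states, Abcg1 ranged from -0.013 to 0.33 in interferon-responding, -0.070 to 0.49 in activated and -0.19 to 0.42 in tip-like ECs, Abca1 from -0.15 to 0.24 in activated ECs and Scarb1 from -0.30 to 0.26 in tip-like ECs. The class by diet difference ranged in artery ECs from -0.30 to 0.81 for Abcg1, -0.28 to 0.050 for Acvrl1 and -0.038 to 0.35 for Apoe, and in vein ECs from -1.004 to 1.17 for Abcg1, -0.21 to 0.32 for Apoe and -0.31 to 0.30 for Acvrl1. Under DESeq2 Scarb1 was 0.018 between the diets in capillary ECs, and Abcg1 was 0.47 in vein ECs and 0.086 in its vein term. With the stricter gate Scarb1 was -0.056 between the diets in artery ECs and -0.082 in tip-like ECs, Abca1 was -0.24 in activated ECs and Acvrl1 was -0.016 in interferon-responding ECs, where it was -0.013 with no filter and -0.061 with the thinned gate. With the thinned gate Scarb1 was 0.0058 and Abca1 -0.032 between the diets in capillary ECs, Osbp was 0.042 in vein ECs, Abca1 was -0.56 and Abcg1 -0.074 in activated ECs, and Abca1 was -0.088 in tip-like ECs.

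The library numbers 1 and 2 pair the diets in the titles only, and 2 pairs do not show that they mark shared animals or days. With the library number as a replicate block, 49 genes were called between the diets in capillary, 172 in artery and 0 in vein ECs and 82 in mural cells, and none of the 8 genes was among them. Under this block Scarb1 was 0.033 in capillary ECs, Mylip 0.00050 in artery ECs and Abcg1 0.61 in vein ECs. Lipg had at most 79 UMIs in a capillary sum of 1 library.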
